A study of Homo sapiens with 12 samples.

Results

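Solute carrier genes were examined in a human cell line, MDA-MB-231, derived from a triple-negative breast cancer. Cells received AZD0095 at 10 nM or DMSO, the solvent, for 4 h. AZD0095 inhibits MCT4, the lactate exporter encoded by SLC16A3. The members were all genes whose symbol starts with SLC, a family number and a letter, without SLC16A3, SLC16A7, SLC2A3, SLC38A2, SLC7A11, SLC7A5, SLC3A2, SLC1A5 and SLC7A1. Of 6777 listed genes, 108 symbols matched and 99 remained after those 9 were left out. By family they comprised 24 mitochondrial carriers (SLC25A), 25 carriers assigned to the plasma membrane, 14 zinc transporters (SLC30A and SLC39A), 5 pH-linked carriers (SLC4A and SLC9A) and 28 other carriers, mostly of internal membranes. The remaining 3, SLC2A4RG, SLC4A1AP and SLC7A6OS, carry such a symbol but are not transporters. Assignment by family is coarse: SLC25A17 is a peroxisomal carrier, SLC25A46 sits in the outer mitochondrial membrane, and SLC31A2 is found largely on endosomes.

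RNA-seq and ribosome profiling, which sequences mRNA fragments shielded by ribosomes (footprints), were each done on 3 AZD0095 and 3 DMSO libraries of the same line. No genotype differed between the groups, and both came from this 1 line. Whether replicates came from separate cultures is not given by the labels; p-values therefore reflect the spread among these libraries only, and that spread may be technical.

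Solute carriers move ions, metals, sugars, amino acids, vitamins and metabolites across membranes. Mitochondrial carriers pass nucleotides, phosphate and organic acids across the inner membrane. Zinc exporters of the SLC30 family lower cytosolic zinc and importers of the SLC39 family raise it. Anion exchangers of the SLC4 family and sodium-proton exchangers of the SLC9 family set cytosolic and organelle pH. Proton-coupled lactate export, the step blocked by AZD0095, bears on the same acid balance in glycolytic tumour cells.

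All values are FPKM, a read density scaled to gene length and to the mapped reads of the library. The 12 tables list only genes above 1 FPKM in every library, so a carrier below that level in even 1 library is not in them. The lactate carrier SLC16A1 (MCT1), the bicarbonate carrier SLC4A7 and the zinc importer SLC39A10 were looked for and not listed. The line's markers fitted its label: 7 of 7 were listed, and neither the receptors ESR1, PGR and ERBB3 and the cadherin CDH1 nor any of 4 markers of blood, endothelial and stromal cells was. EPCAM, an epithelial marker, was listed at a mean of 10.1 FPKM in DMSO RNA. Steps in the footprint values implied 141122, 217366 and 501351 reads in the AZD0095 libraries and 123859, 107087 and 192324 in the DMSO libraries, 2.03 times as many on average with AZD0095 and 1.27 times without AZD0095 replicate 3. The ranges of the treatments overlapped. RNA values showed no such steps, so RNA depth is unknown. The part of this unequal depth in the footprint comparisons was not tested. In a principal component analysis of RNA, component 1 (52.6% of variance) held AZD0095 libraries between -12.4 and -0.597 and DMSO libraries between 4.0 and 12.4. On component 2, AZD0095 replicate 1 scored 12.2, DMSO replicate 1 3.18 and the other libraries between -7.9 and -0.0168. In footprints, DMSO replicate 2 scored 56.1 on component 1, with the other libraries between -18.9 and 2.95. DMSO replicate 1 scored 52.8 on component 2, AZD0095 replicate 1 -27.7 and the others between -15.0 and 0.383.

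In RNA, the drug-treated cells had higher levels of 6 carriers and lower levels of 4. Those that rose were the glycine transporter SLC6A9, the neutral amino acid transporter SLC1A4, the copper importer SLC31A1, the choline transporter-like protein SLC44A2, the fatty acid transport protein SLC27A1 and the mitochondrial citrate carrier SLC25A1. Those that fell were the zinc exporter SLC30A1, the amino acid exchanger SLC7A6, the vitamin transporter SLC5A6 and the nucleotide sugar transporter family member SLC35A5. Changes were between a drop by 0.51 and a rise by 0.91 on the log2(FPKM + 1) scale, which understates the change of low genes. A gene was called where the limma p, adjusted by the Benjamini-Hochberg method over all 6777 genes, was under 0.05. That made 10 of 99 members (10.1%), beside 8.04% of all genes tested. By direction, 5.03% of all genes were called higher with AZD0095 and 3.01% lower. At an unadjusted limma p under 0.05, 30 members (30.3%) passed, beside 24.2% of all genes. The members' median log2 fold change was 0.01, as was the median over all genes, and 50 members had a positive and 49 a negative value. AZD0095 and DMSO libraries did not overlap for 22 members in the higher and 15 in the lower direction, beside 17.7% and 11.5% of all genes. The share of members changed was thus near the background, and the results are those of single genes. In bulk libraries, fewer cells expressing a gene and less RNA per cell cannot be told apart.

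How many members were called depended on which library was left out. Leaving out AZD0095 replicate 2, AZD0095 replicate 3 or DMSO replicate 2 left 0 of 99 members called by limma (25, 24 and 25 at an unadjusted p under 0.05), and the count over all genes dropped to 116, 214 and 100, against 545 with all libraries. Without AZD0095 replicate 1, 16 members (16.2%) were called, 9 of the 10 among them, beside 1112 genes (16.4%). Without DMSO replicate 1 it was 3 members and 280 genes, and without DMSO replicate 3 it was 2 members and 249 genes. No sign among the 10 changed in any of these fits. With replicates 2 and 3 alone, 19 members (19.2%) were called, all 10 included, beside 1395 genes (20.6%).

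**Figure D1:**
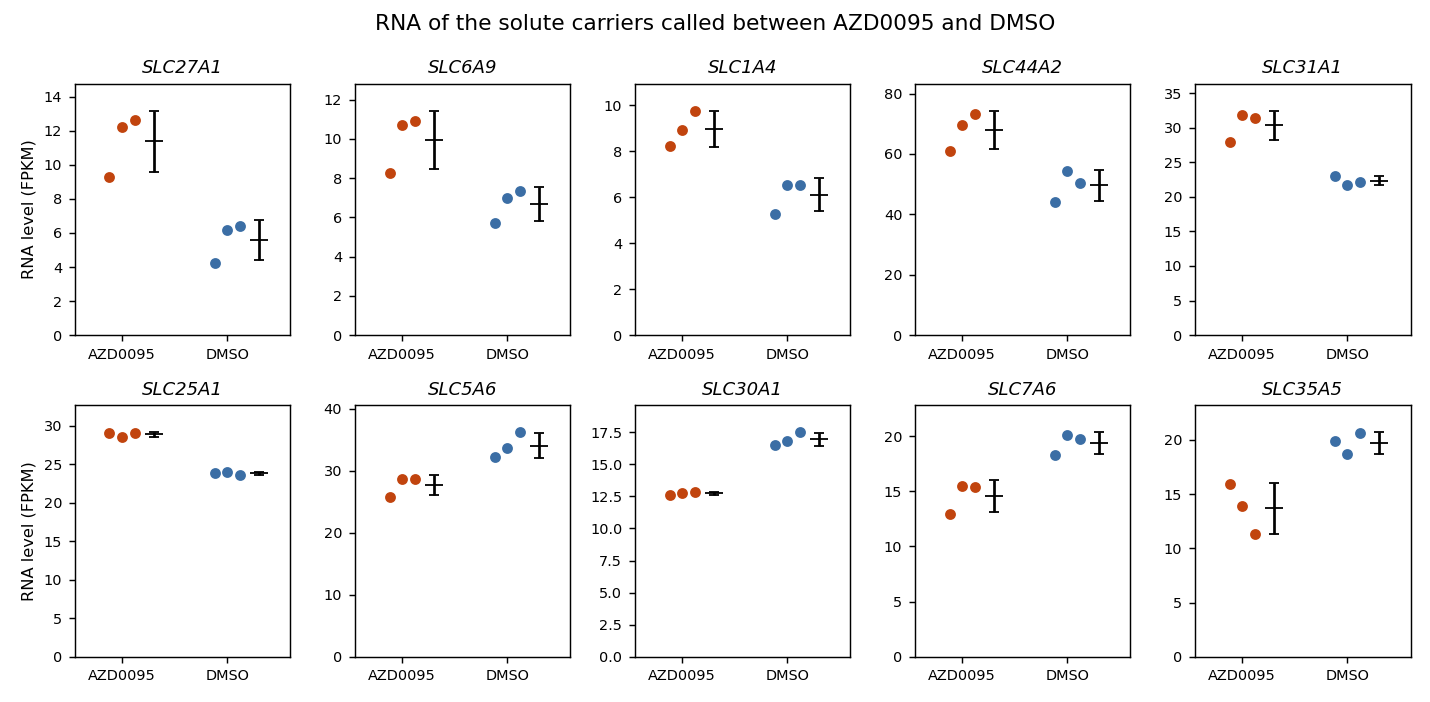
RNA level in FPKM (y axis, from 0) of the 10 called carriers in each AZD0095 library (left) and DMSO library (right), with the mean and SD of 3 libraries. In all 10 panels the points of the AZD0095 and DMSO libraries do not overlap.

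Plasma membrane carriers held 6 of the 10 calls, 4 higher and 2 lower of 25 listed, and their median log2 fold change was 0.03. Called members made up 24.0% of this class, beside 8.04% of all genes. At an unadjusted limma p under 0.05 the share was 36.0%, beside 24.2%. Such class shares are a description without a test. SLC1A4 (ASCT1; ENSG00000115902, chr2:64988479-65023865, GRCh38.p14), an exchanger of alanine, serine, cysteine and threonine, had 8.23, 8.93 and 9.77 FPKM in AZD0095 RNA libraries and 5.29, 6.54 and 6.54 FPKM in DMSO RNA libraries. Every drug-treated library was above every DMSO library. The means were 8.98 ± 0.772 FPKM with AZD0095 and 6.12 ± 0.722 FPKM with DMSO (SD, n = 3 each). SLC1A4 rose by 0.49 ± 0.10 (log2 fold change ± SE; limma, adjusted p = 0.029).

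SLC6A9 (GlyT1; ENSG00000196517, chr1:43996483-44031462), which takes up glycine with sodium and chloride, had 8.24, 10.7 and 10.9 FPKM in AZD0095 RNA libraries and 5.70, 6.99 and 7.34 FPKM in DMSO RNA libraries. The lowest library of each treatment was replicate 1, and the groups did not overlap. Its log2 fold change was 0.51 ± 0.13 (SE; limma, adjusted p = 0.048), near the threshold. It missed the threshold once the libraries were centred on their median (limma, adjusted p = 0.057) or quantile normalized (0.054).

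The other amino acid carrier called moved the other way. SLC7A6 (y+LAT2; ENSG00000103064, chr16:68264526-68301819) pairs with the SLC3A2 heavy chain and exchanges arginine and lysine for neutral amino acids. It had 12.9, 15.5 and 15.4 FPKM in AZD0095 RNA libraries and 18.3, 20.1 and 19.7 FPKM in DMSO RNA libraries. All drug-treated libraries were lower, and SLC7A6 fell by 0.39 ± 0.09 (SE) on the log2 scale (limma, adjusted p = 0.036). Its gene overlaps SLC7A6OS at chr16:68298034-68301819, and whether reads were counted by strand is not given in the sources used here. SLC7A6OS itself averaged 9.60 ± 1.16 FPKM with AZD0095 and 9.98 ± 0.511 FPKM with DMSO (SD, n = 3 each). Of the amino acid carriers called, 2 rose and 1 fell.

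Among carriers of metals, lipids and vitamins, SLC31A1 (CTR1; ENSG00000136868, chr9:113221544-113264492), the high-affinity copper importer, had 28.0, 31.8 and 31.4 FPKM in AZD0095 RNA libraries and 23.1, 21.7 and 22.2 FPKM in DMSO RNA libraries. The DMSO libraries were tightly grouped and all lower. Its log2 fold change of 0.43 ± 0.07 (SE) had an adjusted p of 0.012 with limma, the smallest among members. SLC31A2 (CTR2), its endosomal relative, differed by 0.17 ± 0.11 and was not called (limma, adjusted p = 0.38).

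SLC44A2 (ENSG00000129353, chr19:10602455-10644557), a choline transporter-like protein, was the most abundant of the called members, with 60.9, 69.7 and 73.4 FPKM in AZD0095 RNA libraries and 44.1, 54.3 and 50.5 FPKM in DMSO RNA libraries. The groups did not overlap. It rose by 0.45 ± 0.09 (SE) on the log2 scale (limma, adjusted p = 0.027). SLC5A6 (SMVT; ENSG00000138074, chr2:27199587-27212787), the sodium-dependent carrier of biotin and pantothenate, had 25.8, 28.7 and 28.6 FPKM in AZD0095 RNA libraries and 32.2, 33.7 and 36.2 FPKM in DMSO RNA libraries. All drug-treated libraries were lower, with a drop by 0.29 ± 0.07 (SE) that was near the threshold (limma, adjusted p = 0.048). With limma the adjusted p was 0.068 after median centring and 0.071 after quantile normalization. SLC5A6 overlaps ATRAID, a listed gene, at chr2:27212041-27212787.

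The carriers with the highest RNA in this class did not pass the test. SLC2A1 (GLUT1), the main basal glucose importer, had 249.9, 256 and 268 FPKM in AZD0095 RNA libraries and 227, 272 and 284 FPKM in DMSO RNA libraries, with the DMSO range spanning the drug-treated one. Its log2 fold change was -0.01 ± 0.08 (limma, adjusted p = 0.96). SLC43A3, a purine nucleobase transporter, averaged 219 ± 12.6 FPKM with AZD0095 and 234 ± 23.8 FPKM with DMSO (SD, n = 3 each). SLC12A2 (NKCC1), a sodium-potassium-chloride cotransporter, was lower in every AZD0095 library at 7.47, 9.16 and 8.19 FPKM, against 9.88, 10.2 and 11.4 FPKM in DMSO libraries, and was not called (limma, adjusted p = 0.093), though some alternatives called it, as given with them. The phosphate importer SLC20A1 averaged 169 ± 2.51 FPKM with AZD0095 and 174 ± 3.50 FPKM with DMSO (SD, n = 3 each).

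**Figure D2:**
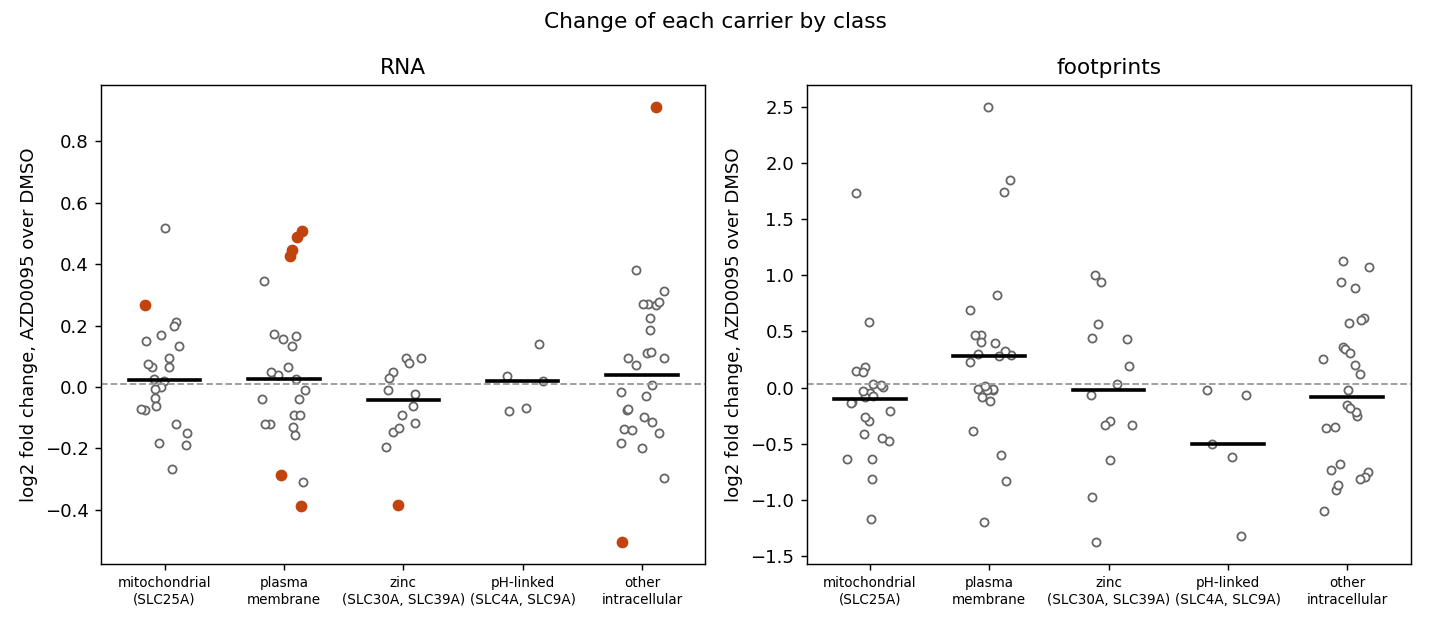
Log2 fold change (AZD0095 over DMSO, log2(FPKM + 1) scale, y axis) of each carrier by class, in RNA and in footprints, with called members filled, class medians as black bars and the median of all genes dashed. Class medians in RNA lie between -0.04 and 0.04, while footprint values spread far more widely and none is called.

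In the zinc class, 1 of 14 members (7.14%) was called in RNA, beside 8.04% of all genes, and it fell. SLC30A1 (ZnT1; ENSG00000170385, chr1:211571568-211579161, minus strand) exports zinc across the plasma membrane, and its gene is a known target of the metal-sensing factor MTF1. It had 12.6, 12.8 and 12.8 FPKM in AZD0095 RNA libraries and 16.5, 16.8 and 17.5 FPKM in DMSO RNA libraries. Both groups were tight and well separated, at 12.7 ± 0.134 FPKM with AZD0095 and 16.9 ± 0.502 FPKM with DMSO (SD, n = 3 each). SLC30A1 fell by 0.38 ± 0.07 (SE) on the log2 scale (limma, adjusted p = 0.014). The promoter of this exporter, 250 bases before to 50 after the start (RefSeq, GRCh38.p14, chr1:211579112-211579411, minus strand, 5′ to 3′), is printed because the gene is the 1 zinc transporter called; capitals mark matches to the metal response element core TGCNCNC, here both on the opposite strand.
SLC30A1: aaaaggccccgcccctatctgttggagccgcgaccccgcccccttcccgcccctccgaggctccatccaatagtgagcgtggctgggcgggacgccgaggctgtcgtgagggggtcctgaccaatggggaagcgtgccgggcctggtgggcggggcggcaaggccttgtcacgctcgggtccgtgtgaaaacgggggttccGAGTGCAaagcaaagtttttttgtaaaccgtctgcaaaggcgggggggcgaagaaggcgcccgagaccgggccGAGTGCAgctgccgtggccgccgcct
The core was searched on both strands and found 2 times in this window. It is common: 55.2% of all 27305 promoters of this length hold it, as do 64.2% of the 5656 promoters of listed genes. Among members with a promoter sequence it was found in 49 of 77 (63.6%), and among zinc transporters in 5 of 12. A match describes letters and is not a binding site.

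Across the class the RNA differences were small. AZD0095 and DMSO RNA libraries did not overlap for 4 zinc transporters in the lower direction (SLC30A1, SLC30A6, SLC39A3 and SLC39A9) and for 0 in the higher one. Over all genes, 11.5% did not overlap in the lower and 17.7% in the higher direction. The class median log2 fold change was -0.04, and 9 of 14 values were negative, beside 3232 of 6777 over all genes. SLC39A1 (ZIP1), a plasma membrane zinc importer and the most abundant of the class, averaged 124 ± 10.5 FPKM with AZD0095 and 116 ± 6.91 FPKM with DMSO (SD, n = 3 each). SLC39A7 (ZIP7), which releases zinc from the endoplasmic reticulum, averaged 110 ± 6.21 FPKM with AZD0095 and 110 ± 6.84 FPKM with DMSO (SD, n = 3 each). SLC39A14 (ZIP14), an importer of zinc and iron, and SLC30A5 (ZnT5), a loader of zinc into the secretory pathway, differed by 0.09 ± 0.07 and -0.09 ± 0.08 (SE) and were not called (limma, adjusted p = 0.45 and 0.52). Of 8 other zinc-handling genes, 2 metallothioneins were listed and limma called 0 (1 at an unadjusted p under 0.05): MT2A at 0.15 (limma, adjusted p = 0.18) and MT1X at -0.01.

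Among mitochondrial carriers, 1 of 24 (4.17%) was called in RNA, beside 8.04% of all genes. The class median level was 20.9 FPKM with AZD0095 and 20.8 FPKM with DMSO, beside 23.4 FPKM with AZD0095 and 23.3 FPKM with DMSO over all genes. The phosphate carrier SLC25A3 had 1166, 1107 and 1200.4 FPKM in AZD0095 RNA libraries and 1194, 1164 and 1117 FPKM in DMSO RNA libraries, the highest level of all 99 members. The adenine nucleotide translocases exchange ADP for ATP. Among them SLC25A5 (ANT2) averaged 431 ± 17.8 FPKM with AZD0095 and 433 ± 12.5 FPKM with DMSO, SLC25A6 (ANT3) 31.9 ± 1.04 FPKM with AZD0095 and 33.3 ± 0.828 FPKM with DMSO, and SLC25A4 (ANT1) 18.0 ± 0.759 FPKM with AZD0095 and 18.5 ± 1.66 FPKM with DMSO (SD, n = 3 each). The groups overlapped for SLC25A3 and for all 3 translocases. Reads shared among the closely related translocases and their pseudogenes may have been split between them, by a rule not given in the sources used here.

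The 1 call among 24 was SLC25A1 (ENSG00000100075, chr22:19175581-19178736), which exports citrate to the cytosol, where it feeds fatty acid synthesis. It had 29.0, 28.5 and 29.0 FPKM in AZD0095 RNA libraries and 23.9, 24.0 and 23.6 FPKM in DMSO RNA libraries. The spread within each group was far smaller than the gap. Its log2 fold change was 0.27 ± 0.06 (SE; limma, adjusted p = 0.030), the smallest of the 10 called. SLC25A29, a carrier of basic amino acids, lay just outside the threshold, with 6.59, 8.63 and 8.41 FPKM in AZD0095 RNA libraries and 5.46, 4.28 and 5.85 FPKM in DMSO RNA libraries (log2 fold change 0.52 ± 0.13; limma, adjusted p = 0.0502). In RNA, 4 of the alternatives called it.

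Other carriers of the citrate and malate shuttles were not called. The oxoglutarate carrier SLC25A11 had a log2 fold change of 0.13 ± 0.07, the dicarboxylate carrier SLC25A10 0.06 ± 0.09, and the aspartate-glutamate carriers SLC25A12 and SLC25A13 0.07 ± 0.12 and -0.07 ± 0.08 (SE). The class median was 0.02 in RNA. Summed over the class, RNA came to 2183, 2066 and 2148 FPKM in AZD0095 libraries and 2185, 2126 and 2062 FPKM in DMSO libraries, which overlap. Of 25 genes for carrier import and other mitochondrial transport, 21 were listed and limma called 0 in RNA (2 at an unadjusted p under 0.05), with a median of 0.02.

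pH-linked carriers had 0 of 5 members called in RNA by limma, and 0 at an unadjusted p under 0.05. Over all genes these shares were 8.04% and 24.2%. SLC4A2 (AE2), a chloride-bicarbonate exchanger that acidifies the cytosol, had 42.6, 45.0 and 47.7 FPKM in AZD0095 RNA libraries and 38.6, 47.0 and 48.3 FPKM in DMSO RNA libraries. The groups overlapped, with replicate 1 the lowest library in each. A difference of 0.02 ± 0.09 (SE) for SLC4A2 does not show equal levels. Of 15 pH and ion partners, 11 were listed and limma called 0 (2 at an unadjusted p under 0.05), with ATP2B4, a plasma membrane calcium pump, nearest at 0.39 (limma, adjusted p = 0.0502).

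Among the 28 carriers mostly of internal membranes, 1 rose and 1 fell (7.14% called, beside 8.04% of all genes). At an unadjusted limma p under 0.05, 12 of them (42.9%) passed, beside 24.2% of all genes. SLC27A1 (FATP1; ENSG00000130304, chr19:17468767-17506168), which promotes uptake of long-chain fatty acids and activates them to acyl-CoA, showed the largest RNA change of all 99 members. It had 9.30, 12.2 and 12.6 FPKM in AZD0095 RNA libraries and 4.24, 6.15 and 6.42 FPKM in DMSO RNA libraries. Its level was lowest in replicate 1 of each group, and the groups were well apart. The log2 fold change was 0.91 ± 0.16 (SE; limma, adjusted p = 0.013).

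SLC35A5 (ENSG00000138459, chr3:112561320-112585579), a member of the Golgi nucleotide sugar transporter family, had 16.0, 13.9 and 11.3 FPKM in AZD0095 RNA libraries and 19.9, 18.7 and 20.6 FPKM in DMSO RNA libraries. The drug-treated libraries were lower but scattered more widely. SLC35A5 fell by 0.51 ± 0.12 (SE) on the log2 scale (limma, adjusted p = 0.037). It overlaps the listed gene ATG3 at chr3:112561320-112561962. SLC38A9, the lysosomal arginine sensor of mTORC1, lay just outside the threshold at 0.38 ± 0.10 (limma, adjusted p = 0.0503), and 5 of the alternatives called it. The Golgi sulfate donor (PAPS) transporter SLC35B2 averaged 52.0 ± 3.57 FPKM with AZD0095 and 54.7 ± 3.41 FPKM with DMSO, and the endoplasmic reticulum ATP/ADP exchanger SLC35B1 averaged 45.3 ± 5.31 FPKM with AZD0095 and 47.5 ± 0.956 FPKM with DMSO (SD, n = 3 each).

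For comparison, among the 9 solute carriers left out of the set, 3 rose in RNA and 0 fell (limma): SLC38A2 at 0.84, SLC2A3 at 0.81 and SLC7A11 at 0.35 on the log2 scale. Over all genes, 5.03% were called higher and 3.01% lower. The gene lists were chosen with earlier results of these data known, so this count is no neutral contrast to the members.

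Footprints of the members varied far more than RNA. The median SD between libraries, on the log2 scale, was 0.57 in AZD0095 and 0.65 in DMSO footprint libraries, against 0.11 in AZD0095 and 0.09 in DMSO RNA libraries. By limma 0 of 99 members were called in footprints, with a background of 0.0%, and 5 members (5.05%) passed an unadjusted p under 0.05, beside 7.82% of all genes. Footprint libraries did not overlap for 5 members higher and 7 lower with AZD0095, beside 7.19% and 5.77% of all genes. In the ratio of footprints to RNA, limma also called 0 of 99 (background 0.0%), and 8 (8.08%) passed an unadjusted p under 0.05, beside 8.53%. Reads were few: a gene whose values gave whole reads had a median of 7, 12 and 28 reads in the AZD0095 libraries and 6, 5 and 10 in the DMSO libraries. Leaving out any 1 footprint library also left 0 of 99 called (limma), with 4 to 10 at an unadjusted p under 0.05.

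The smallest footprint p belonged to SLC26A2, a plasma membrane sulfate transporter. Its footprints were 73.8, 18.4 and 41.1 FPKM in AZD0095 libraries and 3.59, 4.15 and 13.3 FPKM in DMSO libraries. The mean in DMSO, 7.01 FPKM, was the lowest DMSO footprint mean of all 99 members. Its values did not give whole reads in all 6 libraries, so its read counts are not known and may be few. Every drug-treated library was higher, over a wide range. The log2 fold change was 2.50 ± 0.68 and the limma p was 0.0030 before and 0.54 after adjustment. Its RNA averaged 10.8 ± 0.142 FPKM with AZD0095 and 10.5 ± 0.372 FPKM with DMSO (SD, n = 3 each), which overlapped. The ratio difference was 2.46 ± 0.70 (SE), and limma gave an unadjusted p of 0.0039 and an adjusted p of 0.45. Without any 1 footprint library its footprint difference ranged between 2.04 and 3.02.

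SLC1A4 had 29.4, 25.4 and 30.3 FPKM of footprints in AZD0095 libraries and 4.96, 12.7 and 7.19 FPKM in DMSO libraries. As in RNA, all drug-treated libraries were higher. Read counts of SLC1A4 were not recovered and may be few, most of all in the DMSO libraries. Without any 1 library the footprint difference ranged between 1.47 and 2.07. The footprint log2 fold change was 1.74 ± 0.56 (SE), beside 0.49 in RNA, and the ratio differed by 1.25 ± 0.47 (SE). The limma p was 0.0084 for footprints, adjusted 0.63, and 0.019 for the ratio, adjusted 0.47. SLC35B1 ran the other way, at 107, 75.9 and 76.9 FPKM of footprints in AZD0095 libraries and 195, 142 and 152 FPKM in DMSO libraries. All drug-treated libraries were lower, with a log2 fold change of -0.91 ± 0.34 (SE) and a ratio difference of -0.83 ± 0.28 (SE). The limma p was 0.019 for footprints, adjusted 0.63, and 0.012 for the ratio, adjusted 0.47.

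**Figure D3:**
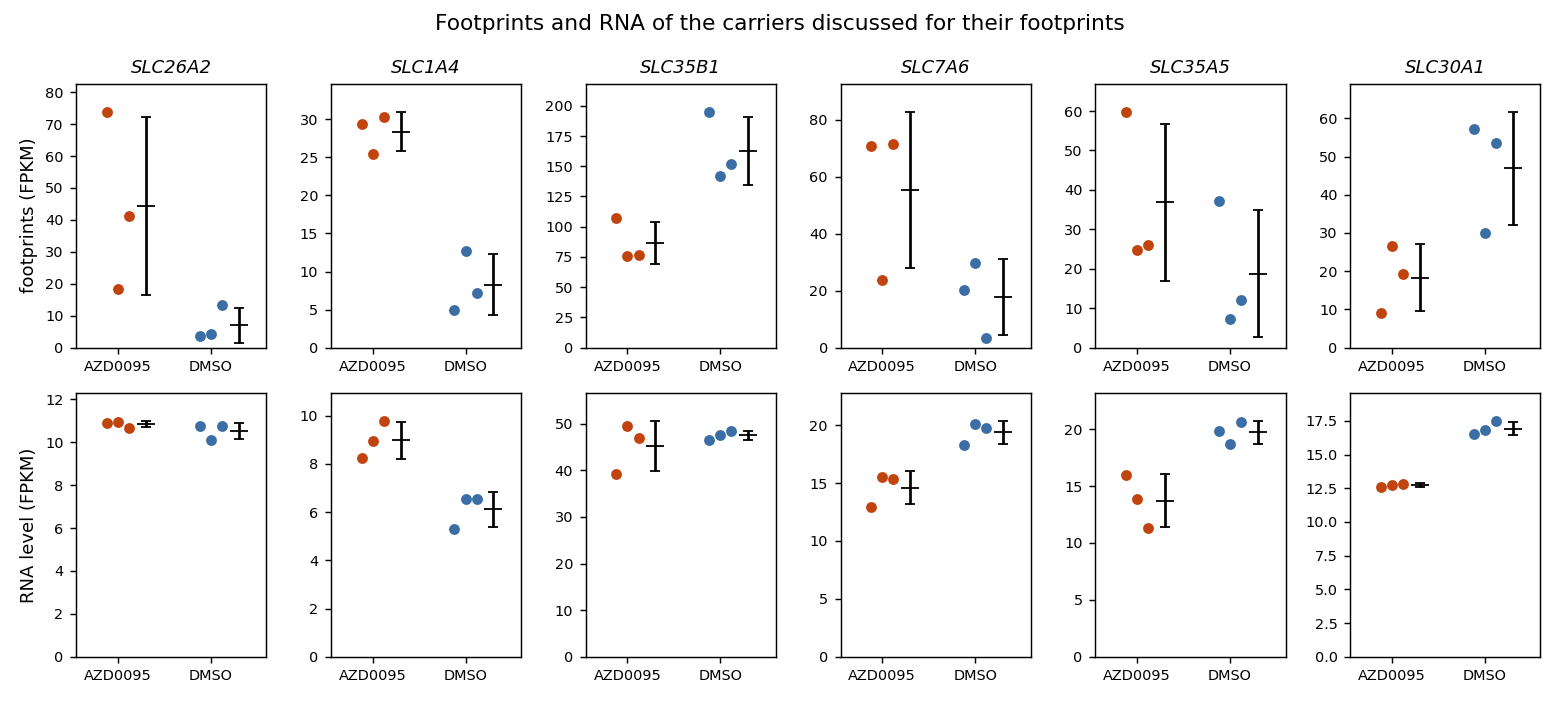
Footprint and RNA levels in FPKM (y axes, from 0) of named carriers in each AZD0095 library (left) and DMSO library (right), with the mean and SD of 3 libraries. SLC1A4 is higher with AZD0095 in both measurements and SLC30A1 lower in both, without overlap between the treatments. Neither is called in footprints. Footprint reads of SLC30A1 are few, and those of SLC1A4 are not known.

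Of the 10 members called in RNA, 7 had footprint differences of the same sign and 3 (SLC5A6, SLC7A6 and SLC35A5) of the other sign, but signs of SLC5A6, SLC6A9, SLC25A1 and SLC44A2 turned when 1 library was left out. The share of same signs over all genes was not counted. For 2, SLC1A4 (higher) and SLC30A1 (lower), the footprint libraries did not overlap either. Over all genes, 7.19% did not overlap in the higher and 5.77% in the lower direction. SLC30A1 footprints were 9.13, 26.7 and 19.3 FPKM in AZD0095 libraries and 57.2, 30.1 and 53.6 FPKM in DMSO libraries. These rest on 2, 9 and 15 reads with AZD0095 and 11, 5 and 16 reads with DMSO in libraries of unequal depth. The difference of -1.37 ± 0.57 (SE) had a limma p of 0.033, adjusted 0.63. SLC7A6 had 70.9, 23.8 and 71.5 FPKM of footprints with AZD0095 and 20.1, 29.6 and 3.30 FPKM with DMSO, overlapping and opposite to its RNA in sign, with a log2 fold change of 1.85 ± 0.76 (SE). The limma p was 0.031, adjusted 0.63. Read counts of SLC7A6 were not recovered and may be few, most of all at 3.30 FPKM in DMSO replicate 3. SLC35A5 had 11, 7 and 17 footprint reads with AZD0095 and 6, 1 and 3 with DMSO. SLC31A1 had 7, 5 and 20 with AZD0095 and 5, 2 and 5 with DMSO. Such counts leave the footprint direction of single carriers uncertain.

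By class, the median footprint difference was -0.10 for mitochondrial, 0.28 for plasma membrane, -0.02 for zinc, -0.50 for pH-linked and -0.09 for other carriers, beside 0.04 over all genes. All 5 pH-linked carriers had negative footprint differences, beside 3176 of 6777 genes, and AZD0095 and DMSO libraries overlapped for each. Values were also negative for 16 of 24 mitochondrial, 10 of 25 plasma membrane, 7 of 14 zinc and 15 of 28 other carriers. SLC4A2 (-0.02) and SLC4A11 (-0.06) differed little, and SLC4A2 was at 0.19 without DMSO replicate 1. SLC9A8 (NHE8), a Golgi and endosomal exchanger, lay lowest of these 5 pH-linked carriers. It had 3.99, 7.78 and 10.1 FPKM of footprints in AZD0095 libraries and 27.3, 26.3 and 8.79 FPKM in DMSO libraries. Those values rest on 1, 3 and 9 reads with AZD0095 and 6, 5 and 3 reads with DMSO, in libraries of unequal depth. Of the DMSO libraries, 1 lay inside the drug-treated range, and the log2 fold change was -1.32 ± 0.62 (SE). The limma p was 0.055, adjusted 0.65. The zinc importers SLC39A1 and SLC39A7 were lower in every drug-treated footprint library, SLC39A1 at 165, 197 and 157 FPKM with AZD0095 against 217, 205 and 212 FPKM with DMSO. SLC39A7 had 138, 166 and 167 FPKM of footprints with AZD0095 and 178, 192 and 227 FPKM with DMSO. Neither passed (limma, adjusted p = 0.84 and 0.82). Class medians of footprints moved with single libraries, as given with the processing alternatives.

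Footprint levels relative to RNA were compared between carrier classes. The ratio is log2(footprint FPKM + 1) of a library minus the mean log2(RNA FPKM + 1) of the same treatment. Mitochondrial carriers had class medians of 1.47, 1.20 and 1.28 in AZD0095 libraries and 1.61, 1.36 and 1.56 in DMSO libraries. Plasma membrane carriers had 1.06, 1.00 and 0.96 in AZD0095 libraries and 0.58, 0.70 and 0.62 in DMSO libraries. Mitochondrial carriers were higher in all 6 libraries, by 0.41, 0.20 and 0.33 with AZD0095 and by 1.03, 0.66 and 0.94 with DMSO. In DMSO, 16 of 24 mitochondrial and 8 of 25 plasma membrane carriers lay above the median of all genes, 1.10. On each carrier's mean over the 3 DMSO libraries, the class median was 1.37 for mitochondrial, 0.88 for plasma membrane, 0.90 for zinc, 0.85 for other and 0.64 for pH-linked carriers, the last from 5 genes with library medians of 0.38, 2.40 and 0.11. These class differences are a description without a test. Per the labels, nuclei and mitochondria were removed from the lysate before digestion, and any part of that step in the ratio was not tested. Nor was any part of gene length, of the unequal footprint depth or of listing only genes above 1 FPKM in every library.

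**Figure D4:**
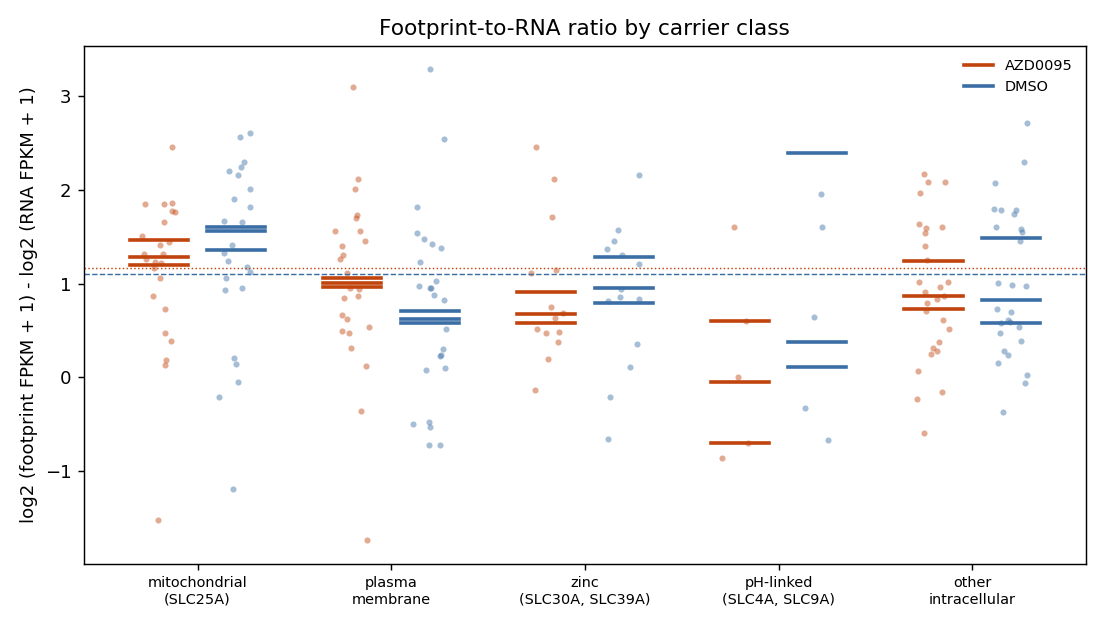
Log2 ratio of footprints to RNA (y axis) for each carrier by class (points, mean of 3 libraries) with AZD0095 left of DMSO, and the class median in each footprint library (3 bars). The dotted and dashed lines mark the median of all genes with AZD0095 and with DMSO; mitochondrial medians lie above both and plasma membrane medians below.

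Single carriers spanned a wide range in DMSO. The highest ratios belonged to the endosomal copper transporter family member SLC31A2 (3.29 ± 0.68), SLC27A1 (2.72 ± 0.68), SLC7A6OS (2.62 ± 1.93), the branched-chain amino acid carrier SLC25A44 (2.61 ± 1.07) and SLC25A4 (2.57 ± 0.26; SD, n = 3 each). The lowest belonged to SLC25A10 (-1.20 ± 1.94), SLC26A2 (-0.73 ± 0.90), SLC20A1 (-0.73 ± 0.18), SLC4A2 (-0.67 ± 0.37) and the mitochondrial zinc transporter SLC30A9 (-0.66 ± 1.57; SD, n = 3 each). In DMSO footprint libraries SLC25A10 had 2.41, 2.78 and 35.8 FPKM and SLC30A9 had 42.9, 5.38 and 5.99 FPKM. Read counts of SLC25A10, SLC26A2 and SLC30A9 were not recovered, and few reads may lie behind such low values. Among the highest ratios, SLC31A2 rests on 4, 3 and 13 reads in DMSO footprint libraries and SLC25A4 on 12, 14 and 18. Neighbours in either list do not differ beyond their spread. On the log2 scale SLC2A1 had a ratio of 0.87 with AZD0095 and 0.88 ± 0.09 with DMSO, and SLC25A3 had 0.38 with AZD0095 and 0.20 ± 0.25 with DMSO (SD, n = 3). The most abundant mitochondrial carrier thus lay below its class, while the translocases SLC25A4, SLC25A5 and SLC25A6 had 2.57, 1.33 and 2.24 in DMSO.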

How the data were processed

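RNA-seq and ribosome profiling were each done on 3 AZD0095 and 3 DMSO libraries, grouped by the labels. The authors deposited FPKM values in 1 table for each library. The submitters' processing notes name STAR, Bowtie2, fastp and hg38. What each tool did, versions, read counter, annotation and how FPKM was scaled were not given in the sources used here. RNA was taken straight from cells, per the labels' protocols, while for footprints a cycloheximide lysate was cleared of nuclei and mitochondria, digested with RNase I, and its pelleted ribosomes were depleted of rRNA with antisense DNA probes and RNase H. The labels name the RNA both as total and as polyadenylated, which is not settled here.

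Of 6785 listed genes, 8 repeated entries were removed. A pseudocount of 1 was added to FPKM, values were taken as log2, and genes with a mean of at least 1 FPKM were kept, which all 6777 passed. limma 3.58.1 (R 4.3.3; lmFit, eBayes with a trend, two-sided, no covariates) compared AZD0095 with DMSO in RNA and in footprints, and assay by treatment for the ratio. Benjamini-Hochberg adjustment covered all 6777 genes, with a threshold of 0.05. The scripts were tested on simulated data.

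Footprint depth was recovered from steps in FPKM values: 1121 genes (16.5%), 18 members among them, gave whole numbers of reads in all 6 libraries, with a tolerance of 0.1. RNA libraries showed no shared steps (at most 8 genes shared a ratio between 2 libraries, against 176 in footprints), so no count test was run.

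The members, classes, gene lists and tests were chosen with earlier results of these data known. Named members are those called in any comparison, the 3 with the smallest p where none was called, the 2 with the highest DMSO RNA in each class, the 5 highest and 5 lowest ratios in DMSO, and 20 fixed genes, of which 3 were not listed. Values of some named members are not reported here. Members just past the threshold, and others so stated, were named after their values were seen. Alternatives were other pseudocounts, filters and scalings, a replicate block, replicate 1 as a batch, replicates 2 and 3 alone and leaving out each library. All 99 members matched the gene table; 98 had a position and 77 a promoter in the RefSeq tables (GRCh38.p14), matched by symbol.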

Additional observations from a re-analysis of the deposited data

How the results depend on the processing

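Counts of called members moved most. Of the members called in RNA, 6 were higher and 4 lower. With the replicate number as a block these became 17 and 10, which is 27.3% of members beside 23.9% of all genes. With replicate 1 as a batch they were 18 and 10 (28.3% of members, 24.5% of all genes), and with replicates 2 and 3 alone 14 were higher. All 10 remained called in those fits. Both the block and the batch fit also called SLC12A2 (limma, adjusted p = 0.026 and 0.015). SLC25A29 was called under 4 alternatives (limma, adjusted p = 0.0018 to 0.015) and SLC38A9 under 5 (0.0087 to 0.0499): the block, the batch, replicates 2 and 3 alone, leaving out AZD0095 replicate 1 and, for SLC38A9, median centring. RNA libraries of the same number correlated at 0.622, 0.086 and 0.489 in their deviations from group means, so the numbers do not establish pairs, and the block is given only here. Without 1 RNA library the count was between 0 and 13 higher and between 0 and 3 lower; footprints and ratio stayed at 0. Pseudocounts of 0.01 and 0.5 and a minimum mean of 5 FPKM kept the same 10 calls, and median centring and quantile normalization lost SLC5A6 and SLC6A9, while median centring gained SLC38A9. The mitochondrial footprint median, -0.10, was -0.15 with median centring, -0.17 with quantile normalization and -0.25 with replicates 2 and 3 alone. Without 1 library, class medians in RNA were between 0.0064 and 0.039 (mitochondrial), -0.056 and 0.055 (plasma membrane), -0.070 and -0.023 (zinc), -0.056 and 0.079 (pH-linked) and 0.014 and 0.063 (other). In footprints they were between -0.24 and -0.062, 0.14 and 0.39, -0.078 and 0.10, -0.71 and -0.041, and -0.26 and 0.18 in the same order. DMSO ratio medians were between 1.27 and 1.47, 0.71 and 0.97, 0.85 and 1.04, -0.26 and 1.42, and 0.70 and 1.22, and between 1.09 and 1.13 over all genes, whose median was 1.14 with a pseudocount of 0.01.

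No called member changed sign in RNA. Uncalled log2 fold changes that did, with replicates 2 and 3 alone, were RNA of SLC25A3 (0.016), SLC35B1 (0.0053), SLC4A2 (-0.041) and SLC7A6OS (0.024), and footprints of SLC25A12 (0.48), SLC27A1 (-0.19), SLC2A1 (0.13), SLC39A14 (0.13) and SLC4A2 (0.19). RNA of SLC25A5 was 0.0039 and footprints of SLC5A6 were -0.028 with quantile normalization; with median centring, footprints of SLC25A1 were -0.012 and of SLC5A6 -0.028. Without 1 library, RNA differences crossed 0 for SLC25A10 (-0.0037 to 0.14), SLC25A3 (-0.027 to 0.031), SLC25A4 (-0.11 to 0.013), SLC25A44 (-0.14 to 0.0090), SLC25A5 (-0.040 to 0.016), SLC2A1 (-0.11 to 0.055), SLC35B1 (-0.14 to 0.020), SLC39A7 (-0.061 to 0.037), SLC4A2 (-0.080 to 0.079) and SLC7A6OS (-0.12 to 0.035). Footprint differences crossed 0 for SLC12A2 (-0.068 to 0.56), SLC25A1 (-0.48 to 0.32), SLC25A11 (-0.24 to 0.15), SLC25A12 (-0.53 to 0.21), SLC25A4 (-0.28 to 0.013), SLC25A5 (-0.26 to 0.072), SLC2A1 (-0.073 to 0.081), SLC31A2 (-0.26 to 0.37), SLC39A14 (-0.36 to 0.20), SLC43A3 (-0.072 to 0.54), SLC44A2 (-0.64 to 0.76), SLC4A2 (-0.14 to 0.19), SLC5A6 (-0.63 to 0.42), SLC6A9 (-0.084 to 0.83) and SLC7A6OS (-0.97 to 0.84). The same alternatives were added for SLC25A29, SLC38A9 and SLC9A8 and for 3 ratio differences after seeing the data. The cause of these shifts was not tested. Depth limits the footprint values of carriers with few reads.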

Other observations

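Some carriers outside the rule for named members, chosen here after their values were seen, showed differences that missed the threshold. SLC25A23, a calcium-regulated ATP-Mg/phosphate carrier of mitochondria, had 33.4, 32.9 and 33.8 FPKM in AZD0095 RNA libraries and 28.7, 30.2 and 31.0 FPKM in DMSO RNA libraries. Its footprints ran the other way, at 9.60, 20.5 and 6.41 FPKM with AZD0095 and 27.8, 29.9 and 20.6 FPKM with DMSO. The treatments did not overlap in either measurement, and neither difference was called (limma, adjusted p = 0.17 in RNA and 0.66 in footprints). Footprint read counts of SLC25A23 were not recovered and may be few.

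SLC25A39, the mitochondrial glutathione importer, had 68.5, 68.0 and 66.6 FPKM in AZD0095 RNA libraries and 61.5, 55.7 and 59.4 FPKM in DMSO RNA libraries (limma, adjusted p = 0.066). SLC25A38, which carries glycine for heme synthesis, had 22.4, 25.1 and 23.8 FPKM in AZD0095 RNA libraries and 29.4, 30.5 and 26.5 FPKM in DMSO RNA libraries (limma, adjusted p = 0.075). Neither was called, but both were with the replicate number as a block or replicate 1 as a batch (limma, adjusted p between 0.010 and 0.018 wherever an alternative called them). SLC41A1, a magnesium carrier of the plasma membrane, overlapped in RNA. Its footprints were 4.51, 8.79 and 15.2 FPKM with AZD0095 and 30.8, 17.8 and 16.5 FPKM with DMSO, lower in every drug-treated library and not called (limma, adjusted p = 0.66). These rest on 1, 3 and 12 reads with AZD0095 and 6, 3 and 5 reads with DMSO, in libraries of unequal depth.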
